A study of Mus musculus and Rattus norvegicus with 32 samples.

Results

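Livers of male B6C3F1 mice given 1 oral dose of trichloroethylene (TCE), an industrial chlorinated solvent, were compared with livers of mice given corn oil alone. The comparison holds the 4 arrays titled as single-dose TCE mouse liver and the 4 titled as single-dose corn oil mouse liver, which are 8 of the 32 arrays of the series. Mice of the TCE group were 8 weeks old and received 1500 mg TCE per kg body weight in corn oil by gavage. The corn oil group had the same strain, sex and age and the same vehicle and route without TCE, and all livers were taken 18 h after the dose. The rest of the series repeats this design over 14 days in 10-week-old mice and covers rats on both schedules. B6C3F1 mice are first-generation hybrids of C57BL/6 and C3H parents, and the labels name no transgene or deletion. Whether the 4 samples of a group are 4 animals is not stated, and p-values refer to the spread among samples, which may be technical.

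TCE is oxidised in the liver by cytochrome P450 enzymes to chloral, which is then turned into trichloroethanol and trichloroacetate. In mouse liver, trichloroacetate activates the nuclear receptor PPARα, which switches on genes of fatty acid omega-hydroxylation and of fatty acid oxidation in peroxisomes. A smaller share of TCE is conjugated with glutathione by glutathione S-transferases, and reactive products of either route can bind proteins and use up glutathione.

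PolyA RNA was read on an oligonucleotide array with 12422 probe sets outside the controls, of which those with 1 gene symbol covered 8251 genes. Each deposited value is a linear ratio of an array's signal to the median of the 4 corn oil arrays of the same schedule. A ratio of 1 is therefore the corn oil median, and no ratio says how abundant a transcript was. For the same reason levels of different genes could not be compared, and the liver identity of the samples could not be checked from marker levels. The probe set with the smallest spread within groups stands for a gene. Changes below are log2 changes, TCE minus corn oil, with their standard error (n = 4 and 4), and adjusted p-values come from limma with Benjamini-Hochberg adjustment over all probe sets at a threshold of 0.05. In bulk liver, fewer cells of a type and less RNA per cell cannot be told apart.

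Control probe sets differed between the groups. The Gapdh control's 3' signal relative to its 5' signal, which grows as transcripts are shortened, had log2 values of 1.99, 0.09, 1.84 and 2.13 on TCE arrays 1 to 4, against -0.18 to 0.18 on the corn oil arrays. The difference was 1.54 (exact permutation test, two-sided, p = 0.0571, adjusted over 5 measures 0.0571). Pyruvate carboxylase, a liver enzyme with probe sets at both ends, showed 2.37, 0.39, 1.56 and 1.71 on the TCE arrays and -0.37 to 0.17 on the corn oil arrays, a difference of 1.58 (exact permutation p = 0.0286, adjusted 0.0357). For beta-actin the difference was 0.758 and for the spiked hybridization controls -0.62 (exact permutation p = 0.0286 and adjusted 0.0357 for both). With 4 arrays in each group no p below 0.0286 is possible. TCE array 2 thus had little of the 3' excess of the other TCE arrays, and among the genes called below it showed the smallest change of the 4 in 49.6% of those higher and 43% of those lower. The interquartile range of log2 ratios over probe sets was 0.772 to 0.931 on TCE arrays and 0.361 to 0.38 on corn oil arrays. The difference was 0.503 (exact permutation p = 0.0286, adjusted 0.0357). Every ratio is to the corn oil median, so corn oil arrays are narrower by construction and TCE arrays also hold the group difference. This test therefore cannot show a difference in array quality. Quantile normalization makes these widths equal, so it can also shrink the changes between the groups. The part that shortened transcripts have in the results was not tested beyond the values given with the Gapdh measure as a covariate and without the arrays on which it was above 1.

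**Figure D1:**
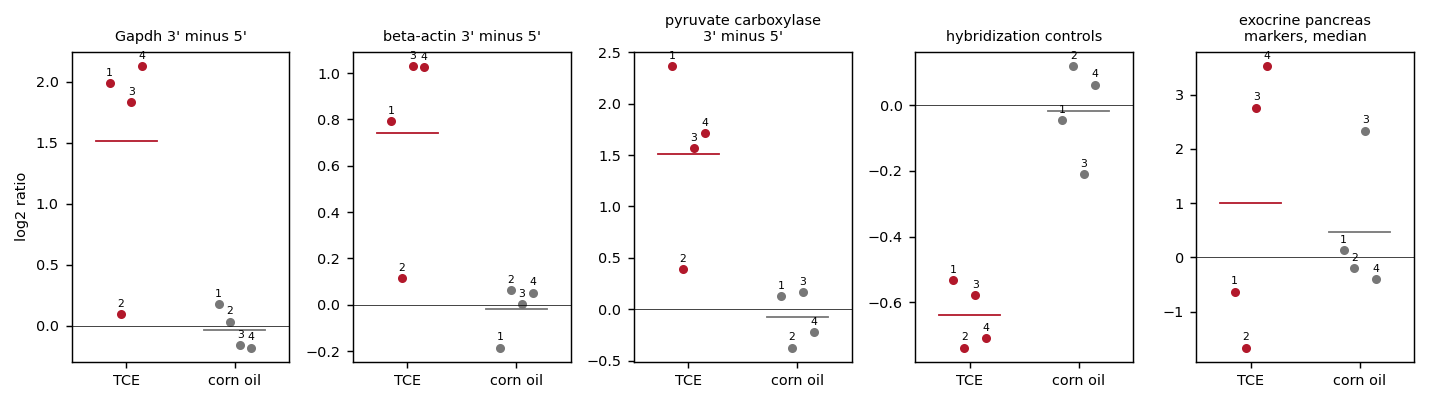
Control measures and the median of exocrine pancreas genes per array, as log2 ratios, with TCE arrays left of corn oil arrays, points numbered by replicate and a line at each group mean. TCE arrays 1, 3 and 4 lie far above all corn oil arrays in the Gapdh and pyruvate carboxylase measures and TCE array 2 does not (0.09 and 0.39), while pancreas genes are high on TCE arrays 3 and 4 and on corn oil array 3.

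After the single dose, 391 genes were higher and 377 lower of 8251 (4.74% and 4.57%), and by probe sets 517 and 514 of 12422 (4.16% and 4.14%). With each array centred on its median the probe set counts were 721 higher and 355 lower (67% higher, against 50.1% as deposited). The median change of called genes was 0.902 in size for those higher and 0.898 for those lower, and 149 rises and 139 falls exceeded 2-fold. Changes over 4-fold were found for 19 rises and 20 falls. The 4 TCE arrays lay beyond all corn oil arrays for 381 of the 391 and 362 of the 377, against 9.08% (above) and 10.4% (below) of all genes. Called genes were chosen by a test on these same arrays, which favours genes whose groups lie apart. These counts therefore describe the called genes and are not separate evidence that they changed. Over all genes the median change was -0.08. The shares of 4.74% higher and 4.57% lower are the background for every list count below.

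Calls depended on single arrays and on scaling. Of 200 called genes chosen for description, 108 passed the threshold with each of the 8 arrays left out in turn. A gene said below to have risen or fallen is one of these unless the text gives the arrays it was lost without. With quantile normalization 59 probe sets passed, and so did 25 of the 200: Acot1, Aldh3a2, Apoa4, Cct3, Cherp, Crnkl1, Cyp2f2, Cyp4a14, Dnase1l3, Ehhadh, Ergic1, Gna14, Habp2, Hsp90aa1, Mgll, Odc1, Pabpc1, Pex11a, Psat1, Psmd5, Serpina12, Slc3a2, Sprr1a, Srm and Tax1bp3. Every other rise or fall below missed the threshold with quantile normalization. The main fit takes its spread from all 16 mouse arrays. With the 8 single-dose arrays fitted alone, 154 of the 200 kept their call and 46 lost it. With the Gapdh covariate 64 of the 200 kept their call and 136 lost it, and for 53 of those lost the log2 change also moved by over 1.5 times. Below, a gene's value with the covariate stands beside its change where it moved that far. Genes described below that lost their call with a smaller shift are Acaa1a, Arnt, C2, Cct4, Cyp26a1, Cyp4a10, Ddx6, Eci2, Eif3b, Gars, Gstm3, Hnrnpab, Hspe1, Igf1, Lipa, Ncl, Ndufa6, Nrp1, Pam, Papss2, Pdia3, Pex6, Phyh, Pla2g12a, Ppara, Psma7, Son, Sparc, Strada, Syt1, Tubb6, Twist2, Usp14 and Zbtb20. Probe sets of Apoa2, Ctse and Prss2, like those noted below, can match related transcripts, and those of Ddx6 and Col1a2 were designed with relaxed rules for choosing probes. Of the 108, 21 missed the threshold when all probe sets of a gene were averaged in place of the chosen one. Those described here are Hsp90aa1, Acaa1b, Cpt2, Mgll, Apoa2, Slc10a1, Proc, C2, C8g, Psmc3, Usp14, Igf1, Lifr, Ctse, Eif3b, Nop56, Hnrnpab, Aplp2, Myh9, S100a10 and Nrp1.

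**Figure D2:**
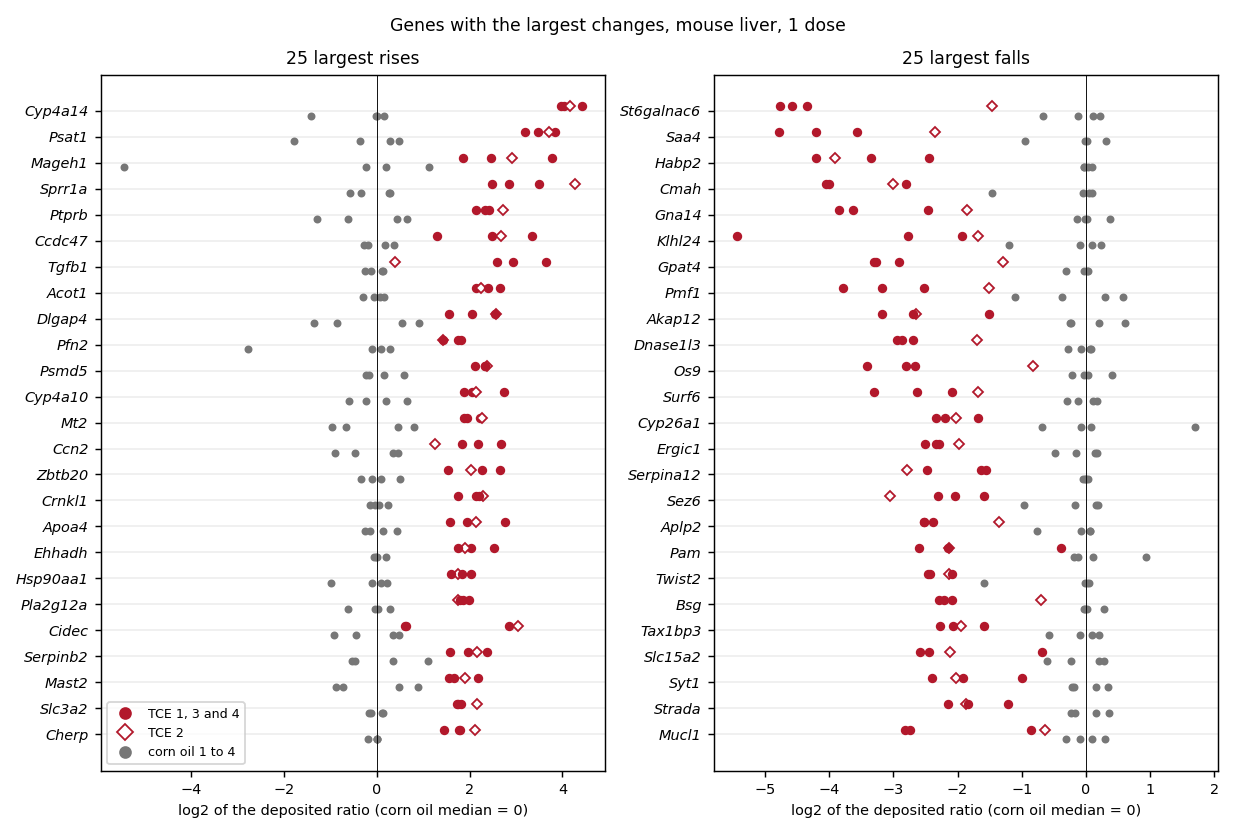
Log2 of the deposited ratio for the 25 largest rises and 25 largest falls among called genes whose groups do not overlap, one row a gene and one point an array, with TCE 2 as an open diamond. Rows run from the largest change down, 31 of these 50 genes passed with each array left out, and TCE 2 is often the TCE point nearest to the grey corn oil points.

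Genes of fatty acid omega-oxidation and acyl-CoA hydrolysis held the largest rise. Cyp4a14, a microsomal omega-hydroxylase of fatty acids, had ratios of 16.4, 17.9, 21.4 and 15.7 on the TCE arrays, against 0.375, 1.12, 1.0 and 0.995 on the corn oil arrays. All TCE values lay far above all corn oil values, and the change was 4.46 ± 0.58, adjusted p = 0.000682. Acot1, a cytosolic thioesterase that frees fatty acids from coenzyme A, had ratios of 4.37, 4.74, 6.27 and 5.24 in TCE livers and 1.12, 0.82, 1.04 and 0.955 in corn oil livers (2.38 ± 0.23, adjusted p = 6.67e-05). Aldh3a2, which oxidises the fatty aldehydes of the same route, reached 2.44, 3.25, 3.13 and 2.89 in TCE livers, with 1.05, 1.08, 0.945 and 0.84 in corn oil livers (1.58 ± 0.15, adjusted p = 6.67e-05). For both genes the lowest TCE array was over the highest corn oil array by a wide margin. Cyp4a10, a close relative of Cyp4a14, changed by 2.19 ± 0.60, adjusted p = 0.0379, and lost its call without any one of the 8 arrays (adjusted p up to 0.0939 without TCE 3). Its probe set belongs to a class whose probes can match several family members.

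Of the 6 measured genes of this list 4 were called higher and 0 lower, with a median change of 1.88, where 4.74% of all genes were called higher and the median was -0.08. With any one array left out the count was 3. With the Gapdh measure as a covariate 3 were called and the median was 1.49. With quantile normalization 3 were called and the median was 1.63. Ppara, the gene of PPARα itself, had ratios of 1.45, 1.61, 1.23 and 1.42 in TCE livers and 1.01, 0.826, 1.03 and 0.986 in corn oil livers (0.56 ± 0.14, adjusted p = 0.0271). It lost its call without TCE 1, TCE 2, TCE 4, oil 2, oil 3 or oil 4 (adjusted p up to 0.079, without oil 2).

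Several peroxisomal genes rose. Ehhadh, the bifunctional enzyme that carries out the middle steps of peroxisomal beta-oxidation, had ratios of 4.06, 3.74, 5.78 and 3.36 in TCE livers and 1.0, 0.997, 0.956 and 1.15 in corn oil livers (2.02 ± 0.17, adjusted p = 6.67e-05). Pex11a, a membrane protein of peroxisome division, had 2.93, 2.6, 3.12 and 3.81 in TCE livers and 1.0, 0.998, 1.1 and 0.906 in corn oil livers (1.63 ± 0.19, adjusted p = 0.000393). No TCE array came near the corn oil arrays for either gene. The thiolases Acaa1b and Acaa1a, which end each beta-oxidation cycle, rose, Acaa1b (1.0 ± 0.16, adjusted p = 0.0025) and Acaa1a (0.97 ± 0.17, adjusted p = 0.00538), and their sequences are closely similar, so their probes may not tell them apart. Eci2, an enoyl-CoA isomerase, rose (0.95 ± 0.18, adjusted p = 0.00768), as did Pex6, an ATPase of peroxisomal protein import (0.89 ± 0.19, adjusted p = 0.0125). Hsd17b4, the second bifunctional enzyme, was called higher (0.47 ± 0.13, adjusted p = 0.0414, and 0.30, adjusted p = 0.339 with the covariate) but lost its call without any array other than TCE 2. Phyh, which starts alpha-oxidation of branched fatty acids, was called lower at -0.63 ± 0.14, adjusted p = 0.017 and lost its call without TCE 4 (adjusted p = 0.057). Of 11 measured genes of peroxisomal fatty acid oxidation 5 were called higher and 1 lower (median 0.33), and of 8 of peroxisome biogenesis 2 and 0 (median -0.02). With the covariate these counts were 2 and 0, and 1 and 0.

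Mitochondrial fatty acid oxidation showed 1 higher call among 16 genes (6.25%, against 4.74% of all genes, median change 0.21). Cpt2, which reforms acyl-CoA inside mitochondria, had ratios of 2.0, 2.08, 1.94 and 1.95 in TCE livers and 1.24, 0.913, 1.06 and 0.943 in corn oil livers (0.95 ± 0.15, adjusted p = 0.00219). Among 26 genes of lipid uptake and storage 3 were called higher and 0 lower. Mgll, the lipase that splits monoacylglycerol, rose (1.03 ± 0.12, adjusted p = 0.000374) with TCE ratios of 1.9 to 2.24 against 0.951 to 1.09 in corn oil. Vnn1, a pantetheinase of coenzyme A recycling, rose (1.12 ± 0.20, adjusted p = 0.00533), with TCE ratios of 1.48 to 2.78 that lay just above the corn oil ratios of 0.822 to 1.36. TCE array 1 was the lowest of the TCE arrays for it.

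Apolipoproteins went both ways. Apoa4, an apolipoprotein of triglyceride-rich particles, had ratios of 6.81, 4.39, 3.84 and 3.0 in TCE livers and 0.844, 0.9, 1.36 and 1.1 in corn oil livers. The groups did not overlap, TCE 1 was highest, and the change was 2.06 ± 0.30, adjusted p = 0.00164. Apoa2, a main protein of high-density lipoprotein, fell (-0.71 ± 0.13, adjusted p = 0.00584) with TCE ratios of 0.603 to 0.649 and corn oil ratios of 0.958 to 1.07. Of 13 apolipoprotein genes 1 was called higher and 7 lower (median -0.49), but the lower calls numbered 1 to 3 when one array was left out, with 1 left without TCE 4 and without oil 4. With the covariate 1 lower call was left, with arrays centred on their medians 1, and with the single-dose arrays fitted alone 2.

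Lower calls also stood among genes of lipid synthesis. Gpat4, an acyltransferase that starts glycerolipid synthesis, had ratios of 0.103, 0.408, 0.133 and 0.101 in TCE livers and 1.02, 0.809, 0.983 and 1.02 in corn oil livers (-2.63 ± 0.56, adjusted p = 0.0117, and -1.47, adjusted p = 0.197 with the covariate). TCE 2 was the least reduced, and the groups did not overlap. Tm7sf2, a sterol reductase of cholesterol synthesis, had 0.395, 0.518, 0.467 and 0.586 in TCE livers and 0.99, 0.865, 1.01 and 1.09 in corn oil livers (-1.02 ± 0.22, adjusted p = 0.012, and -0.59, adjusted p = 0.184 with the covariate). Of 17 genes of cholesterol synthesis and uptake 0 were called higher and 5 lower (median -0.57). That count was 2 without TCE 3 or oil 2, 7 at most, and 0 with the covariate. The corn oil arrays themselves differed here, with list medians from -0.68 on oil 3 to 0.81 on oil 4. Of 14 genes of fatty acid synthesis 0 were higher and 3 lower (median -0.32), and 0 to 3 were lower with one array left out (0 without TCE 4, oil 2 or oil 4).

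Among enzymes that handle TCE and its products, the isoform best known for oxidising TCE did not pass the test. Cyp2e1 had ratios of 1.0, 0.839, 0.958 and 1.03 in TCE livers and 1.05, 0.994, 0.935 and 1.01 in corn oil livers, with a change of -0.06 ± 0.15, adjusted p = 0.854. Cyp2f2, a cytochrome P450 that also oxidises TCE in mouse lung and is found in periportal hepatocytes, had 0.414, 0.396, 0.425 and 0.426 in TCE livers and 0.928, 1.01, 1.07 and 0.989 in corn oil livers (-1.26 ± 0.16, adjusted p = 0.00059). Its TCE values were tight and all below the corn oil values. Cyp2b10, the classical target of the receptor CAR, had 1.94, 2.61, 1.97 and 3.36 in TCE livers and 0.827, 1.08, 0.983 and 1.02 in corn oil livers (1.31 ± 0.21, adjusted p = 0.00276), with no overlap and TCE 4 highest. Of 15 genes of TCE and chloral metabolism 2 were called higher and 1 lower (median -0.06), which leaves 12 that missed the threshold.

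Cyp26a1, which degrades retinoic acid, had ratios of 0.313, 0.246, 0.218 and 0.197 in TCE livers and 1.05, 0.949, 3.26 and 0.619 in corn oil livers (-2.31 ± 0.48, adjusted p = 0.01). The groups did not overlap, although oil 3 stood far above the other corn oil arrays. Papss2, which makes the sulfate donor of sulfotransferases, fell (-1.20 ± 0.23, adjusted p = 0.00672). Of 11 glucuronosyl- and sulfotransferases and related enzymes, Papss2 among them, 1 was called higher and 2 lower (median -0.42). Of 26 cytochrome P450 genes outside the Cyp4a family 1 was called higher and 3 lower (3.85% and 11.5%, against 4.74% and 4.57% of all genes, median -0.22).

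Glutathione S-transferases, the enzymes of the glutathione route, included 1 higher and 2 lower calls of 18 (5.56% and 11.1%, median -0.27). Gstm3 rose (0.92 ± 0.20, adjusted p = 0.0125), with TCE ratios of 1.48 to 2.59 and corn oil ratios of 0.838 to 1.22, on a probe set that can match related transcripts. Gstm6 had 0.387, 0.468, 0.415 and 0.372 in TCE livers and 0.986, 0.95, 1.05 and 1.01 in corn oil livers (-1.29 ± 0.21, adjusted p = 0.00288, and -0.81, adjusted p = 0.0274 with the covariate). Gstt1, of the theta class that conjugates small halogenated compounds, had 0.429, 0.649, 0.507 and 0.358 in TCE livers and 0.978, 0.983, 1.02 and 1.17 in corn oil livers (-1.13 ± 0.25, adjusted p = 0.0153, and -0.52, adjusted p = 0.203 with the covariate). Both fell on all TCE arrays below the lowest corn oil array. Mgst and Gsta genes of the list were not called.

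Metallothioneins, small cysteine-rich proteins that bind zinc and copper and are induced by metals, glucocorticoids and oxidants, rose. Mt1 had ratios of 3.48, 3.8, 3.06 and 2.45 in TCE livers and 0.753, 0.665, 1.39 and 1.25 in corn oil livers (1.71 ± 0.30, adjusted p = 0.00512). Mt2 had 4.68, 4.85, 3.69 and 3.86 in TCE livers and 0.516, 0.631, 1.75 and 1.37 in corn oil livers (2.17 ± 0.35, adjusted p = 0.00288). The genes are close paralogs, so their probes may not fully separate them. For both genes all TCE arrays lay above all corn oil arrays, and corn oil arrays 3 and 4 were above 1 and 2. With the Gapdh covariate the adjusted p-values were 0.0224 for Mt1 and 0.0141 for Mt2. The 2 genes are neighbours on chromosome 8 and are counted in both the acute phase list (2 higher and 1 lower of 25) and the list of heme, iron and metal genes (2 higher and 4 lower of 23). The promoters of both are shown because both genes moved together. They run from 250 bases before to 50 bases after the annotated start, from RefSeq on build GRCm38.p6, at chr8:94178839-94179138 for Mt1 and chr8:94172368-94172667 for Mt2, both on the plus strand and written 5' to 3'. Capitals mark the core of the metal response element, TGCACNC or TGCGCNC on either strand, the motif bound by the zinc-sensing factor MTF1. Mt1 held 3 matches and Mt2 held 4, none overlapping another match of this motif.
Mt1: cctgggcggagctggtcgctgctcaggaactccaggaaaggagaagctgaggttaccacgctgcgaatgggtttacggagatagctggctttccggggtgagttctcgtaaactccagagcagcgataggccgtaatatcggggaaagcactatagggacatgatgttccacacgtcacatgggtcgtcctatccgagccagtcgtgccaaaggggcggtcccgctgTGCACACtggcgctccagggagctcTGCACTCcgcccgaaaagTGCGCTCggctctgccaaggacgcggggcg
Mt2: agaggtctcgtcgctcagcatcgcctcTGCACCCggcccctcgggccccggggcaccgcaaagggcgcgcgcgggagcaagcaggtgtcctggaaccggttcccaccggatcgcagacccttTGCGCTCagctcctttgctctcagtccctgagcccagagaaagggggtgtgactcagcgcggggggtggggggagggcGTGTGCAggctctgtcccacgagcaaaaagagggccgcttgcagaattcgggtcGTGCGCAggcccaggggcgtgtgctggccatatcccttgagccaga
This short motif was present in 8444 of 32851 mouse promoter windows of the same length (25.7%), so a match is a description of these letters only.

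The called rises included proteasome subunits and chaperones. Psmd5, a chaperone for assembly of the proteasome's regulatory base, had ratios of 5.03, 5.16, 4.33 and 5.01 in TCE livers and 1.11, 1.49, 0.855 and 0.891 in corn oil livers (2.20 ± 0.21, adjusted p = 6.67e-05). Psma7, a subunit of the outer rings of the catalytic core, had 2.21, 2.0, 2.35 and 1.98 in TCE livers and 1.14, 0.916, 0.835 and 1.08 in corn oil livers (1.11 ± 0.19, adjusted p = 0.00472). Psma5, of the same rings, had 2.06, 2.51, 1.91 and 1.86 in TCE livers and 1.22, 0.923, 0.956 and 1.04 in corn oil livers (1.01 ± 0.15, adjusted p = 0.00211). In all 3 the groups were clearly apart. Psmc3, an ATPase of the regulatory particle, rose (0.97 ± 0.20, adjusted p = 0.00993), on a probe set that can match related transcripts, and Psme4, a proteasome activator of the nucleus, rose (1.10 ± 0.24, adjusted p = 0.0124, and 0.67, adjusted p = 0.193 with the covariate).

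Of 40 measured subunits and assembly factors of the proteasome 12 were called higher and 0 lower (30% against 4.74% of all genes), with a median change of 0.37. Positive changes were found for 31 of the 40, against 3545 of 8251 genes in all. Psmb8 and Psmb9, subunits of the interferon-inducible immunoproteasome, had changes of -0.58 and -0.61 and were not called (adjusted p = 0.127 and 0.0958). The count of higher calls was 8 without TCE 1 and without oil 3, and 13 at most. With the covariate it was 8 (median 0.50), with centring 15, and with quantile normalization 1 (median 0.38). Ubiquitin enzymes included 3 higher and 1 lower of 21. Ube2d2a, a ubiquitin-conjugating enzyme, had 2.3, 2.38, 2.94 and 2.06 in TCE livers and 0.952, 1.09, 0.948 and 1.05 in corn oil livers (1.25 ± 0.24, adjusted p = 0.00797, and 0.79, adjusted p = 0.132 with the covariate), without overlap. Usp14, a deubiquitinase that sits on the proteasome, rose (0.68 ± 0.14, adjusted p = 0.0112).

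**Figure D3:**
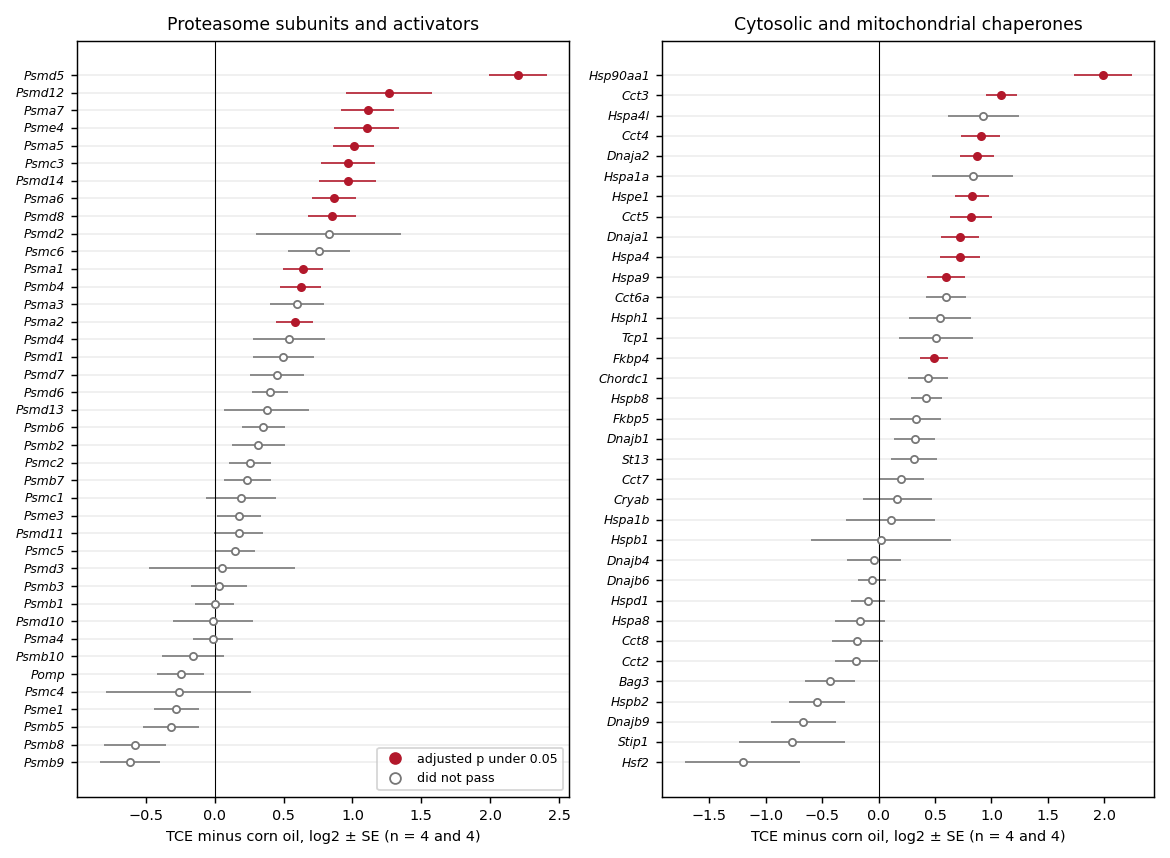
Log2 change, TCE minus corn oil, with its standard error (n = 4 and 4) for 40 proteasome genes and 35 genes of the chaperone list, one row a gene, filled where the adjusted p was under 0.05. The chaperone list also holds the heat shock factor gene Hsf2. The 12 and 10 called genes all lie right of 0, and Psmb9 (-0.61) and Hsf2 (-1.21) lie farthest left without a call.

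Heat shock chaperones, which fold proteins and are switched on by heat shock factor when misfolded proteins build up, showed 10 higher and 0 lower calls of 35 (28.6%, median change 0.33). The 35 include Hsf2, the gene of a heat shock factor and not of a chaperone. Hsp90aa1, the inducible form of HSP90, had ratios of 4.07, 3.35, 3.03 and 3.55 in TCE livers and 1.06, 1.17, 0.509 and 0.938 in corn oil livers (1.99 ± 0.26, adjusted p = 0.000682). The groups did not overlap, and oil 3 was the lowest corn oil array. The other probe set of Hsp90aa1 had a change of the opposite sign (-0.92, adjusted p = 0.555), and the mean of both gave 0.53 (adjusted p = 0.488). Cct3, a subunit of the ring chaperonin that folds actin and tubulin, had 2.31, 2.06, 1.97 and 1.97 in TCE livers and 0.852, 0.998, 1.0 and 1.07 in corn oil livers (1.08 ± 0.14, adjusted p = 0.0006). Cct4, another subunit, had 1.98, 1.92, 1.63 and 1.93 in TCE livers and 1.15, 0.942, 0.85 and 1.06 in corn oil livers (0.90 ± 0.17, adjusted p = 0.00767). Neither overlapped between groups.

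Dnaja2, a cochaperone of HSP70, rose (0.87 ± 0.15, adjusted p = 0.00401), and so did Hspe1, the mitochondrial cochaperonin (0.83 ± 0.15, adjusted p = 0.00648), with ratios of 1.91, 1.52, 2.07 and 1.54 in TCE livers and 1.11, 0.975, 0.838 and 1.02 in corn oil livers. Hspd1, its larger partner, changed by -0.10 ± 0.15, adjusted p = 0.749 and was not called. The count of higher calls in the list was 5 without TCE 1 and without oil 3, and 9 at most with one array left out. It was 4 with the covariate (median 0.46) and 2 with quantile normalization (median 0.36). Of the 10 called chaperones 7 were matched in the promoter table, and 1 of them, Hspe1, held the heat shock element searched. The element was the blocks GAA, TTC and GAA with 2 bases between neighbouring blocks, or its reverse complement (TTC, GAA and TTC), and 198 of 32851 windows held it (0.603%). The Hspe1 promoter is shown for that match, from RefSeq on GRCm38.p6 at chr1:55087898-55088197, plus strand, 5' to 3'. Capitals mark 2 overlapping matches, from base -89 to -77 and from -84 to -72 relative to the start.
Hspe1: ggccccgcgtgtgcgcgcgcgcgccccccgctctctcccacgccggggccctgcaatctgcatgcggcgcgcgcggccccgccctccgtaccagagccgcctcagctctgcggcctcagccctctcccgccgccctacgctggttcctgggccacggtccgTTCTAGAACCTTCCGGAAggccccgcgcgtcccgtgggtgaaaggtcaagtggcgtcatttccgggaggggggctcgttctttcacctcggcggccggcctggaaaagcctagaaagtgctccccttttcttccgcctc

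Targets of NRF2, the factor that induces antioxidant and detoxification genes, showed 4 higher and 0 lower calls of 23 (median 0.17). Gsr, which regenerates reduced glutathione, had ratios of 1.86, 1.3, 1.94 and 1.9 in TCE livers and 0.988, 1.01, 0.824 and 1.01 in corn oil livers (0.85 ± 0.19, adjusted p = 0.0149, and 0.47, adjusted p = 0.211 with the covariate), with TCE 2 the least raised and no overlap. Ugdh, which makes the sugar donor of glucuronidation, had 1.8, 1.87, 1.95 and 1.73 in TCE livers and 0.941, 1.06, 0.906 and 1.28 in corn oil livers (0.82 ± 0.16, adjusted p = 0.0086). Gclm, a subunit of the enzyme that starts glutathione synthesis, and Txnrd1, a thioredoxin reductase, changed by 0.70 ± 0.23, adjusted p = 0.0782 and 0.66 ± 0.20, adjusted p = 0.0606, and missed the threshold. Nfe2l2, the gene of NRF2, was called higher (0.87 ± 0.20, adjusted p = 0.0176, and 0.43, adjusted p = 0.246 with the covariate) and lost its call without TCE 4 and without oil 2 (adjusted p up to 0.0578). With the covariate 1 NRF2 target stayed called. Among 13 other antioxidant enzymes, which include catalase and superoxide dismutases, 1 was called higher and 0 lower (median -0.06). The core of the antioxidant response element, TGACNNNGC on either strand, was found in 1 of the 3 called NRF2 targets matched in the promoter table, and in 4071 of 32851 windows (12.4%). The promoter of Ugdh is shown for its 2 matches, in capitals, from RefSeq on GRCm38.p6 at chr5:65435793-65436092, minus strand, written 5' to 3' as the gene reads.
Ugdh: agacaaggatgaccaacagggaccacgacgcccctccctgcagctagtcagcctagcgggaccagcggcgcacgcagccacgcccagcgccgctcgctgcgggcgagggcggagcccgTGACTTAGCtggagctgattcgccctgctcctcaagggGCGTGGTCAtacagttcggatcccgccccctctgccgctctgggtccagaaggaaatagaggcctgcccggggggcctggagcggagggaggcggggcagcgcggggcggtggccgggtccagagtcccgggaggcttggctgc
A direct repeat bound by PPARα with its partner RXR, AGGTCA followed by any 1 base and AGGTCA again, on either strand, was found in 13 of the windows (0.0396%) and in 0 of the 8 called omega-oxidation and peroxisomal genes matched in the table, which says only that these exact letters are not in those windows.

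Genes of amino acid supply included one of the largest rises. Psat1, a transaminase of serine synthesis and a target of the stress factor ATF4, had ratios of 14.4, 13, 9.12 and 11.1 in TCE livers and 1.41, 0.29, 0.778 and 1.22 in corn oil livers (3.89 ± 0.62, adjusted p = 0.00275). Oil 2 was far below the other corn oil arrays, and all TCE arrays were far above them all. Slc3a2, the heavy chain of amino acid exchangers, had 3.52, 4.5, 3.32 and 3.35 in TCE livers and 1.08, 0.887, 0.921 and 1.1 in corn oil livers (1.88 ± 0.18, adjusted p = 6.67e-05). Atf5, a transcription factor of the same response, rose (0.86 ± 0.17, adjusted p = 0.00787), and Gars, the glycyl-tRNA synthetase, rose (0.86 ± 0.16, adjusted p = 0.00538). Of 28 genes of the ATF4 and amino acid response 4 were higher and 1 lower (median 0.14), and of 20 aminoacyl-tRNA synthetases 1 and 0 (median 0.09). With the covariate 3 of the ATF4 list were called higher.

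Translation factors showed 6 higher and 1 lower call of 34 (median 0.06). Pabpc1, the poly(A)-binding protein, had ratios of 2.92, 3.01, 2.77 and 2.33 in TCE livers and 1.05, 0.95, 0.87 and 1.1 in corn oil livers (1.47 ± 0.22, adjusted p = 0.00184). Gspt1, a translation termination factor, rose (1.22 ± 0.25, adjusted p = 0.00923, and 0.74, adjusted p = 0.154 with the covariate), Eif5, a factor of start codon selection, rose (1.15 ± 0.24, adjusted p = 0.0119, and 0.67, adjusted p = 0.189 with the covariate), and Eif3b, a subunit of initiation factor eIF3, rose (0.62 ± 0.14, adjusted p = 0.0134). With the mean of its probe sets the change of Eif3b was -0.22. Among 31 cytosolic ribosomal proteins 1 was higher and 1 lower (3.23% each, near the shares of all genes, median -0.03). Rpl13a, the higher one, had 2.27, 2.21, 2.12 and 1.66 in TCE livers and 0.904, 0.858, 1.1 and 1.23 in corn oil livers (1.02 ± 0.17, adjusted p = 0.00312), apart from the other measured ribosomal proteins.

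Of 27 genes of ribosome biogenesis and the nucleolus 4 were higher and 1 lower (median 0.18), with 2 higher without oil 3 and 1 with the covariate. Nop56, a core protein of box C/D ribonucleoproteins, had ratios of 2.89, 1.55, 2.16 and 2.65 in TCE livers and 0.96, 1.04, 0.936 and 1.25 in corn oil livers (1.11 ± 0.21, adjusted p = 0.00665, and 0.67, adjusted p = 0.0935 with the covariate). Ncl, nucleolin, rose (0.82 ± 0.17, adjusted p = 0.0125). Surf6, a nucleolar protein, went the other way, with 0.235, 0.311, 0.161 and 0.101 in TCE livers and 0.818, 1.13, 0.922 and 1.08 in corn oil livers (-2.40 ± 0.54, adjusted p = 0.0153, and -1.44, adjusted p = 0.246 with the covariate). Neither Nop56 nor Surf6 overlapped between groups. Among 52 splicing and RNA decay genes 3 were higher and 2 lower (5.77% and 3.85%, near the shares of all genes, median -0.04). These counts leave out Crnkl1 and Cherp, also splicing proteins, which are not in the list and rose, as described below. Son, a protein of nuclear speckles, rose (0.80 ± 0.15, adjusted p = 0.00742) and Hnrnpab, an RNA-binding protein, rose (1.09 ± 0.20, adjusted p = 0.00564). Snrpd3, a core protein of spliceosomal ribonucleoproteins, fell (-1.56 ± 0.29, adjusted p = 0.00593, and -0.84, adjusted p = 0.0522 with the covariate), with TCE ratios of 0.274 to 0.423 and corn oil ratios of 0.866 to 1.19, and Ddx6, a helicase of RNA decay, fell (-0.95 ± 0.20, adjusted p = 0.0112).

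The called falls included genes of secreted plasma proteins. Saa4, the constitutive serum amyloid A protein, had ratios of 0.0362, 0.196, 0.0541 and 0.084 in TCE livers and 0.516, 1.24, 1.01 and 0.992 in corn oil livers (-3.57 ± 0.66, adjusted p = 0.00613, and -1.88, adjusted p = 0.06 with the covariate). Habp2, a protease that binds hyaluronan and acts on clotting factors, had 0.0985, 0.0663, 0.0542 and 0.183 in TCE livers and 1.07, 1.02, 0.978 and 0.978 in corn oil livers (-3.49 ± 0.55, adjusted p = 0.00272). The corn oil arrays of Habp2 were tight, and for both genes every TCE array was far below them. Serpina12, a serine protease inhibitor known as vaspin, had 0.338, 0.144, 0.323 and 0.18 in TCE livers and 1.01, 0.968, 1.02 and 0.994 in corn oil livers (-2.11 ± 0.33, adjusted p = 0.00267). F2, prothrombin, had 0.389, 0.577, 0.464 and 0.467 in TCE livers and 0.852, 1.11, 0.886 and 1.12 in corn oil livers (-1.07 ± 0.21, adjusted p = 0.00742, and -0.68, adjusted p = 0.114 with the covariate). Proc, the anticoagulant protein C, fell (-0.98 ± 0.19, adjusted p = 0.00768, and -0.52, adjusted p = 0.073 with the covariate) and Fgb, the fibrinogen beta chain, fell (-0.92 ± 0.18, adjusted p = 0.00914). Of 24 genes of clotting and its control 0 were called higher and 11 lower (45.8% against 4.57% of all genes), with a median change of -0.52. The fewest lower calls were 4, without TCE 1 and without oil 2, and the most 9 with one array left out. The count was 4 with the covariate (median -0.60), 7 with centring and 1 with quantile normalization (median -0.33).

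Complement genes had negative changes in all 17 measured members, of which 0 were called higher and 7 lower (median -0.67). C2, a protease of the classical pathway, had ratios of 0.596, 0.571, 0.451 and 0.556 in TCE livers and 0.87, 1.04, 0.964 and 1.3 in corn oil livers (-0.93 ± 0.18, adjusted p = 0.00797). C8g, a chain of the membrane attack complex, had 0.534, 0.598, 0.577 and 0.463 in TCE livers and 1.04, 0.946, 0.963 and 1.09 in corn oil livers (-0.90 ± 0.14, adjusted p = 0.00278), with no overlap. With the mean of its probe sets the change of C8g was 0.16. Lower calls numbered 2 without TCE 1 and 5 at most with one array left out, 2 with the covariate and 0 with quantile normalization (median -0.42). Of 25 genes of the acute phase list, 1 was called lower, Saa4, and the 2 higher were the metallothioneins, which are not plasma proteins (median -0.19). Fgb, which fell as given above, is not in this list.

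**Figure D4:**
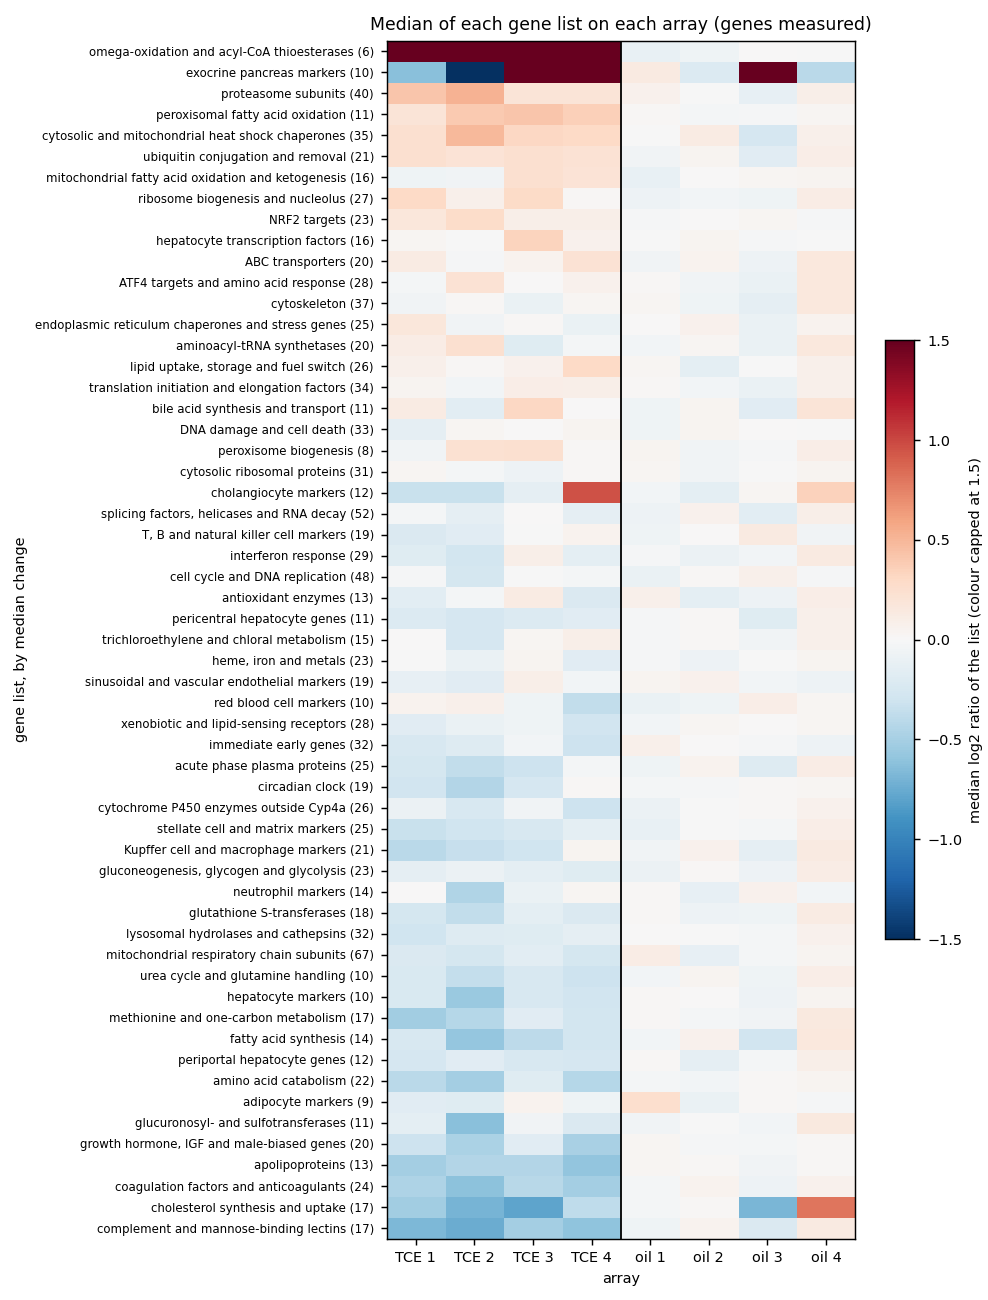
Median log2 ratio of each gene list on each array as colour (capped at 1.5), lists in rows with the number of genes measured, TCE arrays left of corn oil arrays. Omega-oxidation is high on all 4 TCE arrays, coagulation and complement lists are low on all 4, and the pancreas row and the cholesterol row vary among corn oil arrays as well.

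Some genes that respond to growth hormone or are male-biased fell. Egfr, the receptor for epidermal growth factor, had ratios of 0.739, 0.522, 0.573 and 0.584 in TCE livers and 1.01, 0.991, 0.957 and 1.31 in corn oil livers (-0.82 ± 0.15, adjusted p = 0.00584). Lifr, a receptor subunit for leukemia inhibitory factor, had 0.595, 0.514, 0.513 and 0.685 in TCE livers and 0.994, 1.31, 1.01 and 0.934 in corn oil livers (-0.88 ± 0.16, adjusted p = 0.0053). Igf1, the circulating growth factor made by liver, fell (-0.57 ± 0.13, adjusted p = 0.0153), with TCE ratios of 0.64 to 0.742 and corn oil ratios of 0.942 to 1.05. Of 20 genes of the growth hormone and male-biased list 0 were higher and 6 lower (median -0.42), with 3 lower without oil 1 and 3 with the covariate. Among 28 nuclear receptors and their partners 2 were higher and 5 lower. Leaving out one array gave 0 to 2 higher (0 without TCE 4 or oil 2) and 1 to 5 lower (1 without TCE 3 or oil 3). Arnt, the partner of the aryl hydrocarbon receptor, fell (-1.04 ± 0.19, adjusted p = 0.00538), with TCE ratios of 0.391 to 0.55 and corn oil ratios of 0.855 to 1.06.

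Amino acid breakdown and one-carbon metabolism held further falls. Ivd, an enzyme of leucine breakdown, had ratios of 0.383, 0.604, 0.464 and 0.373 in TCE livers and 0.847, 0.989, 1.01 and 1.07 in corn oil livers (-1.12 ± 0.18, adjusted p = 0.00321). Bckdha, of the complex that commits branched-chain amino acids to breakdown, had 0.418, 0.672, 0.451 and 0.4 in TCE livers and 0.94, 0.843, 1.1 and 1.06 in corn oil livers (-1.05 ± 0.21, adjusted p = 0.00847, and -0.59, adjusted p = 0.115 with the covariate). Neither overlapped between groups, and TCE 2 was the least reduced for both. Pccb, a subunit of propionyl-CoA carboxylase, fell (-0.84 ± 0.17, adjusted p = 0.00993). Of 22 amino acid breakdown genes 0 were higher and 4 lower (median -0.36, and 3 lower with the covariate). Slc1a2, a glutamate transporter of pericentral hepatocytes, fell (-0.92 ± 0.15, adjusted p = 0.00283). Gnmt, which uses up S-adenosylmethionine, had 0.373, 0.601, 0.337 and 0.283 in TCE livers and 1.07, 0.923, 0.932 and 1.07 in corn oil livers (-1.38 ± 0.27, adjusted p = 0.00838, and -0.70, adjusted p = 0.0868 with the covariate). Of 17 methionine and one-carbon genes 0 were higher and 5 lower (median -0.32), with 1 left without TCE 3 or oil 4 and 0 with the covariate.

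Further calls lay in energy metabolism, bile acid transport and organelles. Sdha, the flavoprotein of succinate dehydrogenase, had ratios of 0.45, 0.499, 0.54 and 0.432 in TCE livers and 0.764, 1.09, 0.923 and 1.08 in corn oil livers (-1.0 ± 0.16, adjusted p = 0.00253), and Ndufa6, a subunit of respiratory complex I, fell (-0.76 ± 0.16, adjusted p = 0.0119). Of 67 respiratory chain subunits 0 were higher and 6 lower (median -0.28), and 2 to 6 were lower with one array left out, with 2 without TCE 4 or without any one corn oil array. Slc10a1, the main bile acid uptake transporter of hepatocytes, had 0.586, 0.488, 0.601 and 0.612 in TCE livers and 0.954, 1.05, 0.886 and 1.14 in corn oil livers (-0.81 ± 0.15, adjusted p = 0.00538). Gbe1, the glycogen branching enzyme, rose (1.0 ± 0.21, adjusted p = 0.0116, and 0.66, adjusted p = 0.179 with the covariate).

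Lysosomal genes counted 2 higher and 5 lower of 32 (median -0.28). Gm2a, an activator protein of ganglioside breakdown, had ratios of 0.359, 0.478, 0.431 and 0.399 in TCE livers and 1.05, 1.01, 0.985 and 0.906 in corn oil livers (-1.25 ± 0.16, adjusted p = 0.000682). Ctse, an aspartic protease, fell (-1.27 ± 0.19, adjusted p = 0.00219) and Lamp2, a membrane protein of lysosomes, fell (-1.03 ± 0.16, adjusted p = 0.00259), while Lipa, the acid lipase of cholesteryl esters, rose (0.88 ± 0.19, adjusted p = 0.0116). In the endoplasmic reticulum Pdia3, a disulfide isomerase, fell (-1.12 ± 0.24, adjusted p = 0.0123) and Herpud1, a factor of protein degradation there, fell (-0.76 ± 0.14, adjusted p = 0.00581). That list had 1 higher and 2 lower of 25 (4% and 8%, median 0.09). Bak1, an effector of mitochondrial cell death, fell (-0.78 ± 0.16, adjusted p = 0.0086), and Cirbp, a cold-inducible RNA-binding protein, fell (-1.22 ± 0.20, adjusted p = 0.00345). Of 33 genes of DNA damage and cell death 2 were higher and 2 lower (median -0.0045), of 48 cell cycle genes 0 and 1 (median -0.06), and of 29 interferon response genes 0 and 0 by limma, with 0 and 3 at an unadjusted p under 0.05 (median -0.05).

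Genes that mark cell types other than hepatocytes were called in small numbers, in short lists. Of 19 endothelial genes 2 were higher (10.5%) and 1 lower (5.26%), against 4.74% and 4.57% of all genes. Ptprb, a phosphatase of vascular endothelium, had ratios of 5.37, 6.54, 4.43 and 5.04 in TCE livers and 1.58, 1.35, 0.651 and 0.412 in corn oil livers (2.61 ± 0.42, adjusted p = 0.00278), and Nrp1, a coreceptor for vascular growth factor, rose (0.82 ± 0.16, adjusted p = 0.00768). Dnase1l3, a secreted nuclease made by sinusoidal endothelium and macrophages, had 0.155, 0.309, 0.137 and 0.13 in TCE livers and 0.827, 1.05, 1.06 and 0.951 in corn oil livers (-2.50 ± 0.28, adjusted p = 0.000217). The 3 genes did not overlap between groups and went both ways. Of 25 stellate cell and matrix genes 1 was higher and 1 lower (4% each), and Sparc, a matrix-binding glycoprotein, fell (-1.09 ± 0.23, adjusted p = 0.0111). Of 10 red blood cell genes 1 was lower (10%), Alas2, the heme synthesis enzyme of erythroid cells (-1.30 ± 0.20, adjusted p = 0.00253), and globin genes were not called. Of 9 adipocyte genes 1 was higher and 1 lower (11.1% each). With one array left out, 0 or 1 of these 9 were higher and 0 lower.

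Of 21 Kupffer cell and macrophage genes limma called 0 (median -0.23), with 1 higher and 6 lower at an unadjusted p under 0.05, where 908 and 1220 of all 8251 genes were. C1qb, a chain of complement C1q made by macrophages, had ratios of 0.568, 0.633, 0.432 and 0.458 in TCE livers and 0.957, 1.04, 0.847 and 1.25 in corn oil livers (-0.97 ± 0.36, adjusted p = 0.11). Aif1, an actin-binding protein of macrophages, had 0.326, 0.401, 0.356 and 0.14 in TCE livers and 0.833, 1.21, 0.625 and 1.17 in corn oil livers (-1.70 ± 0.53, adjusted p = 0.0646). Neither overlapped between groups, and both missed the threshold. Lack of overlap, in either direction, was found for 6 of the 21 genes and for 1611 of all 8251. Aif1 had the lowest change of the 21, of which 5 were positive, up to 0.66. Genes of cholangiocytes (12), of lymphocytes (19) and of neutrophils (14) gave 0 limma calls, with 1, 1 and 3 at an unadjusted p under 0.05. Hnf4a, a master transcription factor of hepatocytes, had 0.214, 0.878, 0.174 and 0.172 in TCE livers and 0.77, 1.09, 1.06 and 0.941 in corn oil livers (-1.80 ± 0.60, adjusted p = 0.0807). It missed the threshold. TCE 2 lay within the corn oil range, and TCE 1, 3 and 4, the arrays with the 3' excess, lay below it. This change was the lowest of 16 hepatocyte transcription factors, of which 11 had positive changes and 0 were called (median 0.15). Of 10 hepatocyte markers 0 were higher and 2 lower.

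Exocrine pancreas transcripts varied widely among the arrays of both groups. The median change of the list was 0.40, and -0.25 to 1.12 with one array left out, so a group difference is neither shown nor excluded. Prss2, a trypsinogen, had ratios of 0.724, 0.101, 40.9 and 50.1 in TCE livers and 1.5, 0.103, 27.9 and 0.496 in corn oil livers, high on TCE 3, TCE 4 and oil 3. The list median in log2 was -0.63, -1.67, 2.76 and 3.53 on TCE arrays 1 to 4, and 0.13, -0.20, 2.34 and -0.40 on corn oil arrays 1 to 4, and 0 of its 10 genes were called by limma or had an unadjusted p under 0.05. Without those 3 arrays, a choice made after the data were seen, 52 probe sets were called higher and 38 lower. Omega-oxidation then kept its median of 1.88 with 3 calls, proteasome subunits had a median of 0.47 with 2 calls, coagulation genes -0.62 with 1, and complement genes -0.76 with 0.

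Several large changes lay outside the lists, and called genes of the cytoskeleton list (Tubb6, S100a10 and Myh9) follow them here. Sprr1a, a cornified envelope protein that also rises in injured tissue, had ratios of 7.24, 19.2, 11.2 and 5.59 in TCE livers and 1.21, 0.669, 1.22 and 0.792 in corn oil livers (3.36 ± 0.48, adjusted p = 0.00134). Zbtb20, a zinc finger repressor of liver, had 6.34, 4.11, 2.89 and 4.8 in TCE livers and 1.07, 1.41, 0.79 and 0.927 in corn oil livers (2.09 ± 0.39, adjusted p = 0.00648). Crnkl1, a splicing factor, had 4.41, 4.87, 4.58 and 3.37 in TCE livers and 0.905, 1.03, 0.969 and 1.18 in corn oil livers (2.07 ± 0.22, adjusted p = 0.000149), on a probe set with a reduced number of probes. In all 3 every TCE array was above every corn oil array, which the rule for naming them required. Cherp, an endoplasmic reticulum and splicing protein, had 3.43, 4.34, 3.45 and 2.74 in TCE livers and 0.998, 1.01, 0.875 and 1.0 in corn oil livers (1.83 ± 0.17, adjusted p = 6.67e-05). Pla2g12a, a secreted phospholipase, rose (1.93 ± 0.39, adjusted p = 0.00993), on a probe set that can match related transcripts. Tubb6, a beta-tubulin, rose (1.10 ± 0.19, adjusted p = 0.00408), on a probe set of the same kind, and S100a10, a calcium-binding partner of annexin A2, rose (1.25 ± 0.19, adjusted p = 0.00219), while Myh9, a nonmuscle myosin heavy chain, fell (-1.12 ± 0.24, adjusted p = 0.0128, and -0.61, adjusted p = 0.199 with the covariate). Of 37 cytoskeleton genes 7 were higher and 5 lower, and 2 were higher without TCE 1 or oil 3.

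Among falls outside the lists, Gna14, a G protein alpha subunit, had ratios of 0.0803, 0.276, 0.181 and 0.0693 in TCE livers and 1.29, 0.991, 0.91 and 1.01 in corn oil livers (-3.01 ± 0.54, adjusted p = 0.0053, and -1.67, adjusted p = 0.0519 with the covariate). Ergic1, a membrane protein between endoplasmic reticulum and Golgi, had 0.205, 0.255, 0.176 and 0.198 in TCE livers and 0.716, 1.13, 1.1 and 0.9 in corn oil livers (-2.19 ± 0.28, adjusted p = 0.0006). Tax1bp3, a PDZ domain protein, had 0.206, 0.258, 0.237 and 0.334 in TCE livers and 0.937, 1.16, 0.674 and 1.06 in corn oil livers (-1.88 ± 0.22, adjusted p = 0.000348), on a probe set with a reduced number of probes. These 3 lay on every TCE array below every corn oil array, which the rule for naming them required. Aplp2, a relative of the amyloid precursor protein, fell (-2.02 ± 0.41, adjusted p = 0.00923, and -0.94, adjusted p = 0.08 with the covariate), as did Pam, a peptide-amidating enzyme (-2.0 ± 0.44, adjusted p = 0.0143), Strada, a partner of the kinase LKB1 (-1.79 ± 0.35, adjusted p = 0.00783), and Twist2, a transcription factor (-1.89 ± 0.41, adjusted p = 0.0123). Pam was among the 46 of 200 called genes that lost their call with the single-dose arrays fitted alone (limma adjusted p = 0.0536 for Pam). Twist2 was among 10 of the 200 that lost theirs on a log2(ratio + 1) scale (adjusted p = 0.0634 for Twist2). Sez6 fell (-2.05 ± 0.41, adjusted p = 0.0086) and Syt1 fell (-1.86 ± 0.40, adjusted p = 0.0118), both proteins best known from neurons.

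The single-dose changes were set beside those after 14 days of dosing, which had their own corn oil arrays. On those arrays 197 genes were called higher and 777 lower (2.39% and 9.42%). Of the 391 single-dose rises 35 were also called higher there and 6 lower, with a median change of 0.13 after repeated doses. Of the 377 single-dose falls 149 were also called lower there and 0 higher, with a median of -0.60. Mice on the longer schedule were also 2 weeks older, so schedule and age cannot be told apart. Gapdh values were also high on 3 of the 4 repeated-dose TCE arrays and on 1 of their corn oil arrays.

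**Figure D5:**
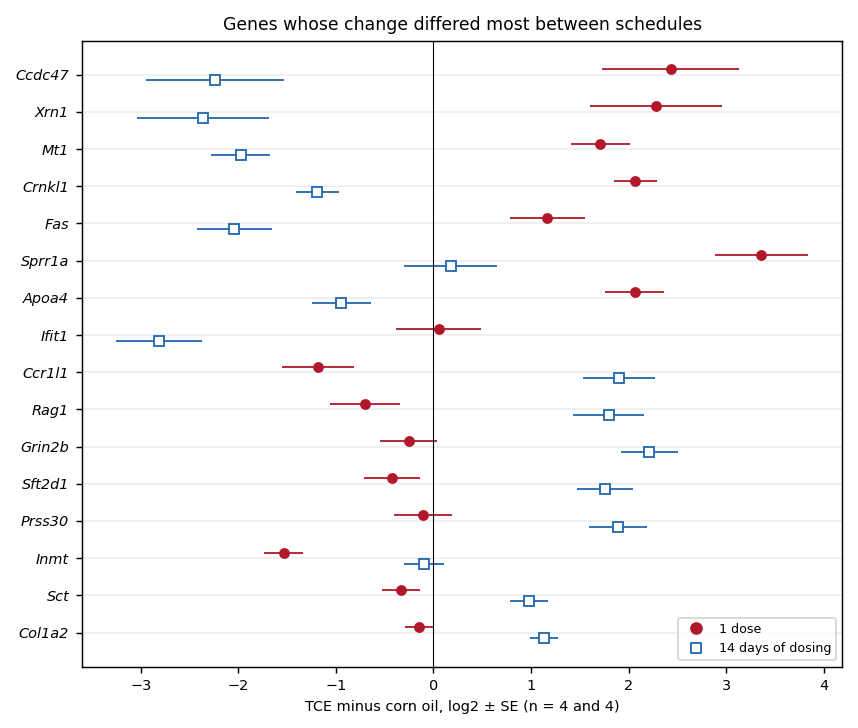
Log2 change, TCE minus corn oil, with its standard error (n = 4 and 4) after 1 dose (filled) and after 14 days of dosing (open) for the 16 genes with the largest called differences, 8 each way. Mt1, Crnkl1, Fas and Apoa4 lie right of 0 after 1 dose and left of 0 after repeated doses, and Col1a2 is near 0 after 1 dose and right of 0 after repeated doses.

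The difference between schedules was tested for each probe set, and 83 were called higher and 26 lower in the single-dose change minus the repeated-dose change (0.668% and 0.209% of 12422), or 66 and 18 of 8251 genes (0.8% and 0.218%). A difference was called for 46 of the 391 single-dose rises and for 4 of the 377 falls. Both sets were chosen by the single-dose values that also enter the difference, so these counts cannot show how far the schedules differ. Over all genes the median change was -0.08 after 1 dose and -0.16 after repeated doses. With arrays centred on their medians, 48 probe sets were called higher and 30 lower in the difference. No gene of the lists of omega-oxidation, peroxisomal oxidation, peroxisome biogenesis and mitochondrial fatty acid oxidation had a called difference. Among them Cyp4a14 changed by 5.22 ± 0.58 after repeated doses (difference -0.76 ± 0.82, adjusted p = 0.659), Acot1 by 2.18 ± 0.23 (difference 0.20 ± 0.32, adjusted p = 0.776) and Ehhadh by 2.35 ± 0.17 (difference -0.33 ± 0.24, adjusted p = 0.485). Those p-values do not show that the changes were equal.

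Mt1, which rose after 1 dose, was called lower after repeated doses (-1.98 ± 0.30, difference 3.68 ± 0.43, adjusted p of the difference 0.00318). Apoa4 changed by -0.94 ± 0.30 after repeated doses (difference 3.0 ± 0.42, adjusted p = 0.0103) and Crnkl1 by -1.19 ± 0.22 (difference 3.26 ± 0.31, adjusted p = 0.000497). Fas, the death receptor, changed by 1.17 after 1 dose (adjusted p = 0.0781) and by -2.04 ± 0.38 after repeated doses (difference 3.21 ± 0.54, adjusted p = 0.0198). Col1a2, a chain of type I collagen, changed by -0.15 after 1 dose (adjusted p = 0.578) and by 1.14 ± 0.14 after repeated doses (difference -1.28 ± 0.20, adjusted p = 0.0157). These 5 differences passed with each of the 16 mouse arrays left out (adjusted p up to 0.0487, for Fas without repeated-dose oil 2). The other 11 named differences passed in 1 to 15 of the 16, and none of the 109 probe sets passed with quantile normalization, where 654 had an unadjusted p under 0.05.

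A difference was called for 1 of 40 proteasome genes and 3 of 35 genes of the chaperone list, where 84 of all 8251 genes (1.02%) had one. Psmd5 changed by 0.46 ± 0.21 after repeated doses (difference 1.74 ± 0.30, adjusted p = 0.0206), Cct3 by -0.07 ± 0.14 (difference 1.15 ± 0.19, adjusted p = 0.0198) and Hsp90aa1 by 0.12 ± 0.26 (difference 1.87 ± 0.36, adjusted p = 0.042). Cherp changed by 0.07 ± 0.17 (difference 1.76 ± 0.24, adjusted p = 0.00717) and Rpl13a by -0.30 ± 0.17 (difference 1.32 ± 0.23, adjusted p = 0.0253). The difference of Cherp passed with each of the 16 arrays left out, those of Psmd5 and Cct3 with all but single-dose TCE 1 (adjusted p = 0.0562 and 0.0559), that of Rpl13a in 12 and that of Hsp90aa1 in 7 of the 16. Coagulation and complement genes named above had no called difference, with F2 at -1.18 ± 0.21 and C2 at -1.06 ± 0.18 after repeated doses (adjusted p of the difference 0.881 and 0.83).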

How the data were processed

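Per the submitters' processing notes, MAS5 was used, with no version stated. The authors' deposited values are ratios: over the 4 corn oil arrays of each mouse schedule the median of every probe set without a missing value was 1, which was found from the values. Of 12488 probe sets 66 controls were left out. The platform annotation gave 10833 of the 12422 tested 1 symbol, 396 several and 1193 none.

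Log2 ratios of the 16 mouse arrays were fitted in limma 3.58.1 (lmFit, eBayes, R 4.3.3) with a mean per group. Genes were named by a rule: the 25 largest rises and falls without overlap between groups, the 8 largest differences between schedules each way, and up to 6 called and 2 other members per list. A few other genes are given for their role (Cyp2e1, Hspd1, Gclm, Txnrd1, Psmb8, Psmb9, C1qb, Aif1, Hnf4a and Prss2). Members and lists were chosen with earlier results of these data known. The fit was tested on simulated data, and a gene not called is not shown to be unchanged. Alternatives were quantile normalization, centring, log2(ratio + 1), single-dose arrays alone, array weights, a replicate block, a filter on noisy probe sets, averaging all probe sets of a gene, the Gapdh control as a covariate, and leaving out arrays. No signal levels were used here, so no floor or filter on low values was applied, and precision is set by the number of arrays. No pair of arrays shared more than 0.208% of its values. Motifs were searched with Python 3.11.15 on both strands of RefSeq windows.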

Additional observations from a re-analysis of the deposited data

Results flagged for a closer look

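Arrays that stood apart within a group of 4 were found for 12 of 100 gene groups tested among the largest changes, where chance gives about 5 percent. Among control measures the Gapdh 3' minus 5' value was 0.09 on TCE 2, far below the other TCE arrays. On the TCE side Psmd5 was at a log2 ratio of 2.11 on TCE 3, and TCE 2 lay nearest to the corn oil arrays for St6galnac6 (-1.46), Aplp2 (-1.35) and Bsg (-0.69). On the corn oil side oil 1 was low for Cyp4a14 (-1.42), Cmah (-1.47), Aplp2 (-0.77) and Twist2 (-1.59). Oil 2 was low for Pfn2 (-2.77) and Gpat4 (-0.31), oil 3 was low for Cherp (-0.19), and oil 4 was high for Bsg (0.28).

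The single-dose change exceeded the repeated-dose change in limma's test of the difference for Ccdc47 (4.67), Xrn1 (4.65), Mt1 (3.68), Crnkl1 (3.26), Fas (3.21), Sprr1a (3.18), Apoa4 (3.0) and Ifit1 (2.87). It lay below the repeated-dose change for Ccr1l1 (-3.09), Rag1 (-2.50), Grin2b (-2.46), Sft2d1 (-2.18), Prss30 (-2.0), Inmt (-1.44), Sct (-1.31) and Col1a2 (-1.28). Of these 16 differences 5 passed with each of the 16 mouse arrays left out in turn, namely Mt1, Crnkl1, Fas, Apoa4 and Col1a2. Ccr1l1 and Grin2b missed the threshold only without single-dose TCE 1 (adjusted p = 0.0549 for both). The others passed in 9 of the 16 (Sft2d1), 6 (Inmt), 3 (Sct and Xrn1), 2 (Rag1 and Prss30) or 1 (Ccdc47, Ifit1 and Sprr1a).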

How the results depend on the processing

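The single-dose comparison called 1031 probe sets (517 higher, 514 lower). Leaving out one array gave 519 to 1187 (285 to 542 higher, 233 to 645 lower), with the fewest without TCE 1 and the most without TCE 2. Quantile normalization gave 59 (43 and 16), all of them among the 1031, with 1358 at an unadjusted p under 0.05 against 3011. The Gapdh covariate gave 278 (151 and 127), of which 205 were called the same way as deposited. Leaving out the arrays with a Gapdh value above 1 gave 18 (9 and 9), in a fit that leaves 1 single-dose TCE array and assumes that it varies like the other groups. Leaving out TCE 3, TCE 4 and oil 3, an alternative chosen after seeing the data, gave 90 (52 and 38). Array weights gave 803 lower and leaving out the noisiest 40% of probe sets gave 798 lower. Fewer arrays or probe sets enter the fits that leave some out, and for the others the cause was not tested. With the replicate number as a block, limma called 0 single-dose changes (0 higher, 0 lower) with 2630 at an unadjusted p under 0.05, and 0 differences between schedules with 1936. Same-numbered TCE and corn oil arrays had correlations of their deviations of 0.051, 0.070, 0.077 and 0.053. Every corn oil array correlated best with its own number, and every TCE array except TCE 1 did (0.054 with oil 2). The labels do not say whether same-numbered arrays belong together, and the main fit treats them as unpaired. The difference between schedules was called for 109 probe sets (83 higher, 26 lower), for 183 (144 higher) with the covariate, 48 higher with centring and 0 with quantile normalization, and leaving out one array gave 21 to 118 (19 to 91 higher, 2 to 35 lower). Of 216 named results (200 called genes and 16 differences), 79 kept their call with the covariate, 189 with centring and 25 with quantile normalization. Changes of sign occurred in a few results. With the mean of probe sets C8g was at 0.16, Eif3b at -0.22 and Sf3a2 at -0.086. Ifit1 was at -0.24 without arrays of high Gapdh values, at -0.71 without the pancreas arrays, and at -0.085, -0.18 and -0.15 without TCE 3, TCE 4 and oil 3, in a range up to 0.325 (without TCE 1). Cyp2e1 was at 0.035 with centring, 0.027 with quantile normalization and 0.0027 without TCE 2, in a range down to -0.095 (without TCE 4), Hspd1 at 0.020 with quantile normalization, and Prss2 at -3.58 without arrays of high Gapdh values and -0.65 without the pancreas arrays. Ifit1, Cyp2e1, Hspd1 and Prss2 were not called as deposited. Without signal levels, brightness over background could not be used to limit any value.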

Other observations

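Odc1 and Srm, which no list covered and which were picked after their values were seen, were also higher after the single dose. Odc1, ornithine decarboxylase, the rate-limiting enzyme of polyamine synthesis, had log2 ratios of 1.22, 0.85, 1.22 and 1.19 on TCE arrays 1 to 4, against -0.03, -0.28, 0.03 and 0.06 on corn oil arrays 1 to 4. Its change was 1.18 ± 0.17 (limma adjusted p = 0.00145), with no overlap between groups. Srm, spermidine synthase, had log2 ratios of 2.20, 1.33, 1.65 and 2.04 on the TCE arrays, against 0.06, -0.08, -0.06 and 0.36 on the corn oil arrays, on a probe set that can match related transcripts. Its change was 1.74 ± 0.21 (adjusted p = 0.000424). Both rises passed with each of the 8 arrays left out and with quantile normalization. After repeated doses Srm changed by -0.06 ± 0.21 and Odc1 by 0.67 ± 0.17, and the difference between schedules was 1.79 ± 0.29 for Srm (adjusted p = 0.0188) and 0.51 ± 0.24 for Odc1 (adjusted p = 0.268).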
